A study of Caenorhabditis elegans with 2 samples.

Results

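The 7 genes nhr-49, nhr-80, nhr-13, nhr-66, nhr-68, nhr-10 and nhr-114 encode nuclear hormone receptors of Caenorhabditis elegans that act in fat and propionate metabolism. They were chosen by name, out of 19973 nuclear protein-coding genes and 274 nuclear receptor genes. For each, binding of another nuclear receptor, NHR-90, was read from peak lists of chromatin immunoprecipitation followed by sequencing (ChIP-seq). The animals were whole young adult hermaphrodites of strain OP484, taken 64 h after larvae had been synchronized by starvation. They expressed NHR-90 from a transgene, with a C-terminal tag of green fluorescent protein and FLAG, and the sample descriptions name an antibody against GFP, while the antibody field of the labels names nhr-90. There were 2 biological replicates of this 1 group, and the labels do not say whether they came from separate cultures. A control experiment was not analysed here. The peaks come from all tissues of the animal at once, so the cells in which a site was bound are not known from them.

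Nuclear hormone receptors are transcription factors with a zinc-finger DNA-binding domain and a domain that can bind small lipophilic molecules, and the family is greatly expanded in nematodes. NHR-49, NHR-80, NHR-13 and NHR-66 control fatty acid desaturation, oxidation and remodelling, largely in the intestine, the main fat store of the worm. NHR-10 and NHR-68 act in a feed-forward loop that switches on the propionate shunt, the route by which propionate is broken down when vitamin B12 is scarce. NHR-114 switches on genes of the methionine and S-adenosylmethionine cycle when that cycle is impaired.

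Sequence at the strongest pooled start summit is shown for 3 of these genes as examples: nhr-68 for the strongest peak of the 7 genes, nhr-80 for a GA repeat, and nhr-114 for a peak at an internal start without a motif match. Each is written 5′ to 3′ on the strand of the gene, from WBcel235, with capitals for a match to any of the 6 motifs described further on. The nhr-68 stretch lies at chrV:11572991-11573060 on the plus strand, between the gene's own start and that of H12C20.7, with the summit at base 20. The nhr-80 stretch lies at chrIII:15131-15231 on the minus strand, and the nhr-114 stretch at chrV:4188518-4188618 on the plus strand, each with the summit at base 51.
nhr-68: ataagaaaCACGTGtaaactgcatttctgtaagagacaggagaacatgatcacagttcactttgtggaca
nhr-80: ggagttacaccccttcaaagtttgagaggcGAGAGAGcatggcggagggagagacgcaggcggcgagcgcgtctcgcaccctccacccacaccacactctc
nhr-114: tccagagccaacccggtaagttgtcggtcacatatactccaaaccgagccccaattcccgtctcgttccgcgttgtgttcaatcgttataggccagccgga

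For the ce11 build the authors deposited 1441 peaks selected by IDR, the irreproducible discovery rate, which compares the ranks that replicates give their peaks. They also deposited a list of 30000 peaks called from both replicates together, here the pooled list, and lists of 30000 peaks for replicate 1 and 26622 for replicate 2. The pooled and replicate lists are described as peaks with background, so a low peak in them need not be a binding site. Peak signal is the authors' own value for each peak, without a stated unit, and peaks are ranked by it within a list, with rank 1 the strongest. The IDR list ended at a pooled signal of 98.9, and the signal at rank 1441 was 59.5 in replicate 1 and 45.3 in replicate 2. All 1441 IDR peaks are in the pooled list, whose own signal at rank 1441 was also 98.9. A place in the IDR list thus follows pooled signal, and does not by itself show that the replicates agree at that peak. Signals at rank 1441 differ between the replicate lists, so an SD over the 2 replicate signals also holds this difference in scale. Read depth is unknown here.

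NHR-90 peaks of the IDR list lay at 3 of the 7 genes: nhr-68, nhr-49 and nhr-66. A summit counted as at a start within a window from 1000 bp before to 500 bp after any annotated transcript start, and the strongest such peak is the start peak of a gene. Of all nuclear protein-coding genes, 3.62% had such an IDR summit, and of the 267 other nuclear receptor genes 7 had one (2.62%). In the wider gene window, from 1000 bp upstream of the gene to its end, the same 3 genes held 1 IDR summit each, against 5.11% of all genes with any. The 3 peaks were also within the first 1441 peaks of each replicate list alone, where 2.44% of all genes had a start peak in both. Of the other receptor genes, 4 (1.50%) did.

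In the pooled list 6 of the 7 genes had a start peak, against 42.0% of all genes, and nhr-10 had none. When the window was widened to 2000 bp before and 1000 bp after a start, or with any base of a peak counted, all 7 genes had one. The share of all genes under these wider settings is not given here, and 42.0% is not their background. The same 6 genes had a start peak in both replicate lists, against 31.0% of all genes. This count does not require the peaks of a gene to overlap between the lists, and those of nhr-13 do not. These counts describe 7 genes that were chosen with earlier results of these data known, and no test was applied to them. The background in the pooled list is high, so a pooled start peak alone says little about a gene. A gene with more starts also has more windows: nhr-66 has 7 start positions, nhr-49 has 6 and nhr-10 has 1. Neither these shares of all genes nor the IDR shares above are matched for this.

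**Figure D1:**
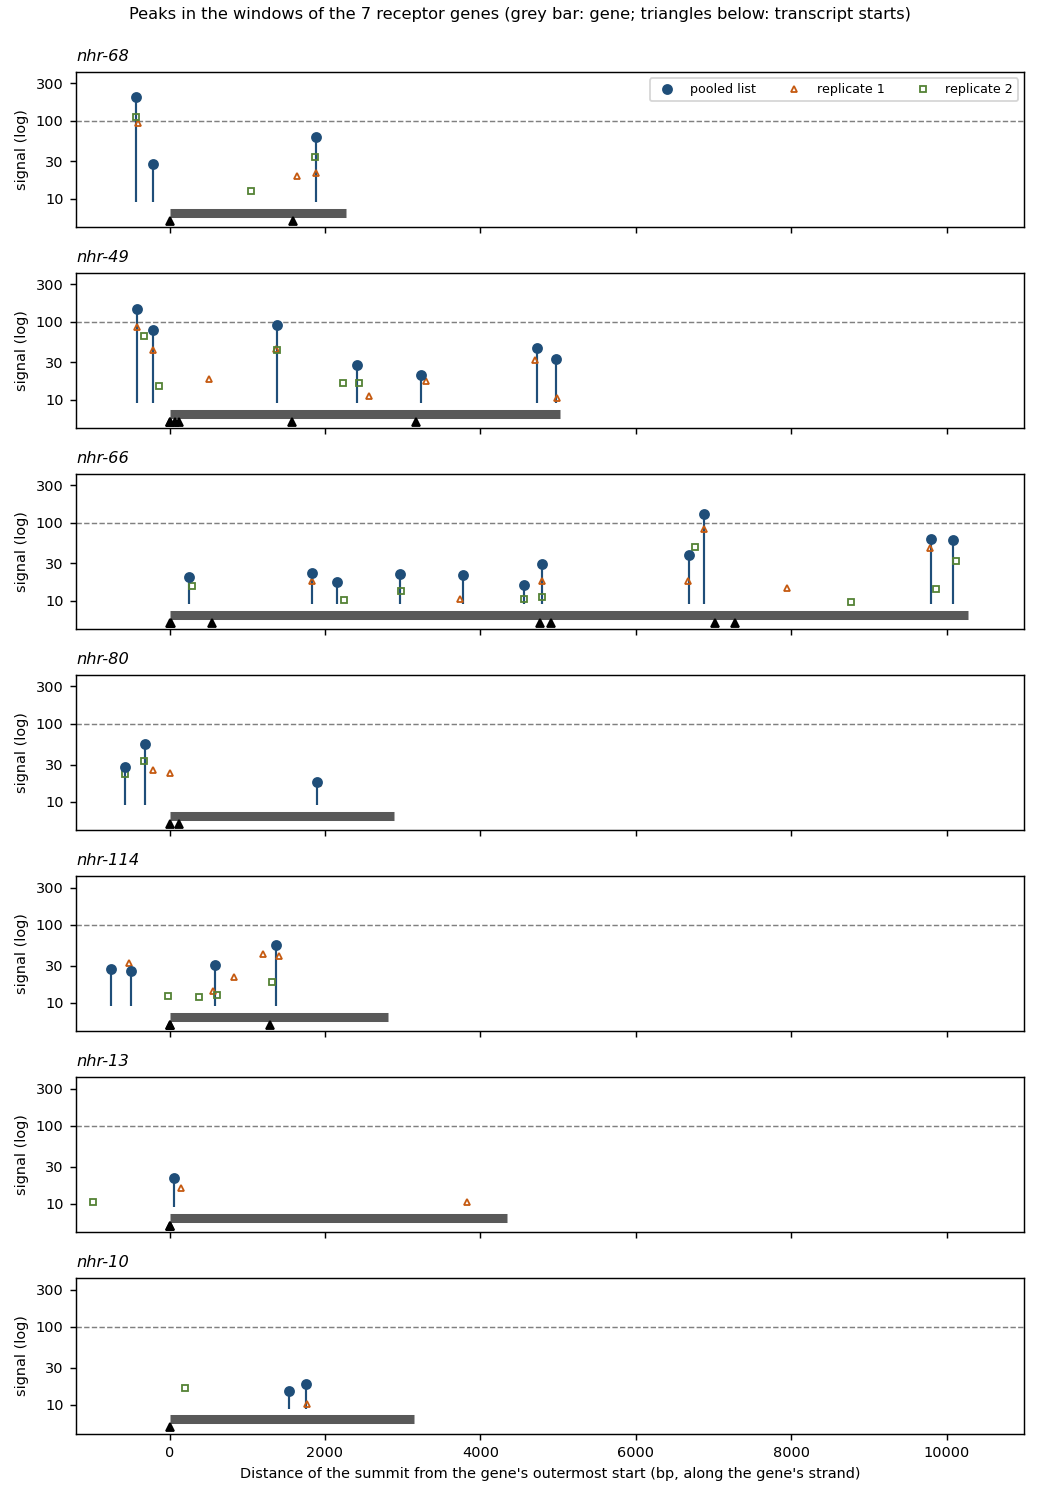
Peaks along the 7 receptor genes. The x axis gives the distance of each summit from the outermost start of the gene in bp along its strand, and the y axis the peak signal on a log scale. Filled circles are pooled peaks, open triangles replicate 1 and open squares replicate 2, the dashed line marks the lowest IDR signal of 98.9, grey bars are genes and black triangles their transcript starts. Only nhr-68, nhr-49 and nhr-66 have a pooled peak above the line, and that of nhr-66 lies 6879 bp into the gene.

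Among the regulators of fat metabolism, nhr-49 encodes the receptor that governs both desaturase and β-oxidation genes. Its 3 strongest pooled peaks had signals of 146, 89.3 and 77.2, and the peaks of 146 and 77.2 overlap. The gene (WBGene00003639) lies at chrI:9869651-9874680 on the plus strand, with 7 transcripts from 6 start positions. Its IDR peak, chrI:9869005-9869454, had a signal of 146 and a pooled rank of 666, with an intergenic summit 421 bp upstream of the first start. The strongest start peak had a signal of 85.0 at rank 695 in replicate 1 and of 64.9 at rank 686 in replicate 2, with a mean of 74.9 ± 14.2 (SD, n = 2). The replicate ranks were thus close to each other and to the pooled rank. The summit of replicate 1 was at the same base as the pooled summit, and that of replicate 2 lay 91 bp further downstream.

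A separate peak of nhr-49 lay inside the gene, at the start shared by transcripts K10C3.6a.1 and K10C3.6b.1, 1577 bp into the gene. Its pooled signal was 89.3 at rank 1729, and its summit, in an intron of 4 transcripts, lay 200 bp upstream of that start. It had a signal of 44.3 at rank 2462 in replicate 1 and of 43.8 at rank 1535 in replicate 2. The summits of the 3 lists were within 12 bp of each other. Another pooled peak, 214 bp upstream of the first start and overlapping the IDR peak, had a signal of 77.2 at rank 2184. Both lie below the end of the ce11 IDR list. The authors' IDR list on the older build ce10 is longer, and in it 1 peak on this chromosome has the width of each and its signal to within 0.01%.

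The remaining nhr-49 peaks were lower. In the window of the last start, 3171 bp into the gene, the pooled signals were 27.6, at 759 bp upstream of it, and 20.7, at 61 bp downstream. At the 3′ end, pooled summits in the 3′ UTR had signals of 45.7 and 33.2, and both also lie in the start window of the next gene, inx-20, which encodes an innexin of gap junctions.

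The receptor gene nhr-66 encodes a partner of NHR-49 in the repression of sphingolipid and lipid remodelling genes, and its IDR peak lay far inside the gene. The gene (WBGene00003656) lies at chrIV:8226331-8236602 on the minus strand, with 10 transcripts from 7 starts. The peak, chrIV:8229498-8229947, had a signal of 129 and a pooled rank of 876. Its summit lay 146 bp upstream of the start of transcript T09A12.4j.1, which is 7025 bp into the gene, and 396 bp upstream of that of T09A12.4e.1 and T09A12.4i.1. At that base 6 transcripts have an intron and 1 has a 5′ UTR. The signal was 82.1 at rank 744 in replicate 1 and 48.8 at rank 1231 in replicate 2 (65.5 ± 23.6, SD, n = 2). Both replicates had it within the first 1441 peaks, and replicate 2 was closer to that limit. The summit of replicate 1 was at the pooled base, and that of replicate 2 lay 113 bp further upstream.

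At the outermost starts of nhr-66, by contrast, the pooled list had only a peak with a signal of 20.3 at rank 21868. Replicate 2 had a peak of 15.3 there, and replicate 1 had none. At the middle starts, 4764 and 4905 bp into the gene, the strongest pooled signal was 29.5, with 17.8 in replicate 1 and 11.2 in replicate 2. Of the 11 pooled peaks in the nhr-66 window, the 2 next in signal after the IDR peak lay at the 3′ end, with 62.5 in a coding exon of all 10 transcripts and 59.7 in the 3′ UTR. Another 6 summits lay in the span of anr-44, an antisense RNA gene on the opposite strand, with signals from 16 to 29.5.

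The gene nhr-80, whose product promotes transcription of stearoyl-CoA desaturase genes, had no IDR peak. It (WBGene00003670) lies near the left end of its chromosome, at chrIII:11985-14869 on the minus strand, with 2 transcripts. Its strongest pooled start peak, chrIII:14956-15405, had a signal of 55.7 at rank 3875, with the summit 312 bp upstream of the first start. Replicate 1 had 25.2 at rank 7582 and replicate 2 had 33.5 at rank 2628 (29.3 ± 5.85, SD, n = 2). The replicates thus placed the peak further apart in rank than the IDR peaks of nhr-49 or nhr-66. The summit also lies in the start window of H10E21.1, which runs the other way. A lower peak 569 bp upstream had a pooled signal of 28.2.

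The gene nhr-13, linked to desaturase expression together with nhr-49 and nhr-80, had the lowest pooled start peak of the 6 genes that had any. It (WBGene00003612) lies at chrV:2192485-2196827 on the plus strand. The peak had a signal of 21.7 at rank 20059, with its summit in a coding exon 52 bp downstream of the nearer start. Replicate 1 had a peak of 16 at rank 17137 with its summit 131 bp downstream of that start. The only peak of replicate 2 had a signal of 10.6 at rank 22960 and lay 990 bp upstream of the first start, where it also falls in the start window of srbc-42, so the replicates do not share a peak at nhr-13.

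Among the regulators of propionate breakdown, nhr-68 had the strongest start peak of the 7 genes. The gene (WBGene00003658) lies at chrV:11573440-11575709 on the plus strand. Its IDR peak, chrV:11572906-11573061, had a signal of 202 and a pooled rank of 312, and at 156 bp it was narrower than the median width of 450 bp. Replicate 1 had 93.0 at rank 568 and replicate 2 had 112 at rank 170 (102 ± 13.1, SD, n = 2). The pooled and replicate 2 summits were at the same base, and that of replicate 1 was 30 bp further downstream.

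The nhr-68 summit lies 430 bp upstream of nhr-68 but only 20 bp upstream of H12C20.7, a protein-coding gene on the opposite strand, and the peak lists cannot assign it to either gene. A second pooled peak, with a signal of 62.2 at rank 3195, had its summit in an intron 288 bp downstream of the start of H12C20.3b.1, the shorter transcript. It had a signal of 21.1 at rank 10624 in replicate 1 and of 34.3 at rank 2496 in replicate 2. The 3 summits were within 4 bp of each other, although the ranks differed widely.

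The gene nhr-10, the partner of nhr-68 in the feed-forward loop, had no start peak in the pooled list. It (WBGene00003609) lies at chrIII:7112295-7115438 on the minus strand, with 1 transcript. Replicate 1 had none either, and replicate 2 had 1 with a signal of 16.4 at rank 11148, 198 bp downstream. Inside the gene, 2 overlapping pooled peaks in coding exons had signals of 18.3 and 15.2, near the lowest pooled signal of 15.1, and replicate 1 had a peak of 10.3 there. Of the 2 receptors of the loop, nhr-68 thus headed the pooled order and nhr-10 had no place in it, although nhr-10 too had a pooled start peak in the wider window or with any base of a peak counted.

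The gene nhr-114, the regulator of the methionine cycle, had its strongest peak at an internal start. It (WBGene00003704) lies at chrV:4187202-4190008 on the plus strand, inside an intron of Y45G5AM.9 on the opposite strand. The pooled peak chrV:4188343-4188792 had a signal of 54.5 at rank 4034, with its summit 72 bp downstream of the start of transcript Y45G5AM.1d.1, 1294 bp into the gene. Replicate 1 had its strongest start peak there, 94 bp upstream of that start, with 42.4 at rank 2676, and replicate 2 had 18.7 at rank 8651, 20 bp downstream of it (30.6 ± 16.8, SD, n = 2). The peak was higher in replicate 1, the reverse of nhr-80. At the outer start the strongest pooled signal was 27.4, and replicate 1 had a peak of 32.8 there against 12.4 in replicate 2, at different positions.

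**Figure D2:**
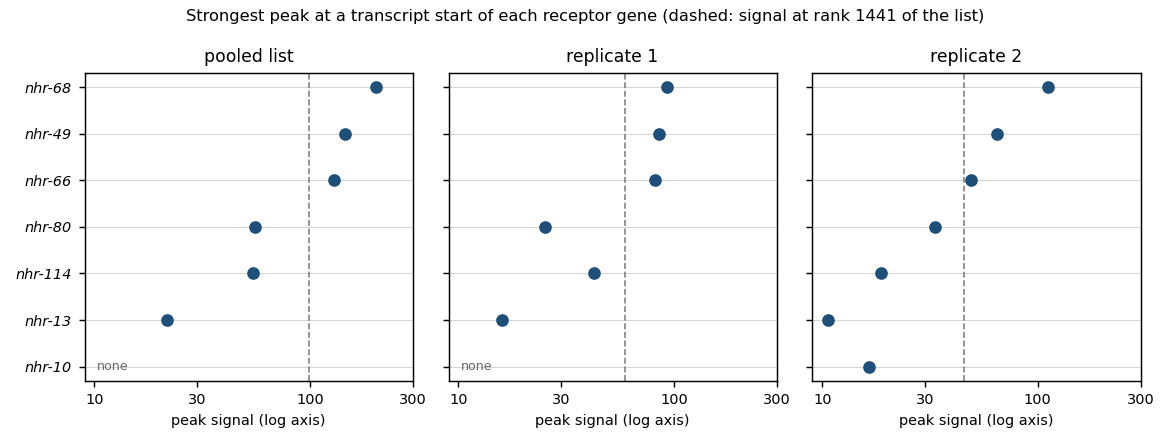
Strongest start peak of each receptor gene in the pooled list and in each replicate list. The x axis gives peak signal on a log scale, rows are genes, and the dashed lines mark the signal at rank 1441 of each list (98.9, 59.5 and 45.3). The dots of nhr-68, nhr-49 and nhr-66 lie right of the line in all 3 panels and the other dots left of it, while nhr-10 has a dot in replicate 2 alone.

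Ordered by pooled start signal, the genes ran nhr-68, nhr-49, nhr-66, nhr-80, nhr-114 and nhr-13, with nhr-10 unranked. Each replicate alone gave this order of the 6 genes too, except that replicate 1 placed nhr-114 (rank 2676) ahead of nhr-80 (rank 7582). For these neighbours the ranks of the replicates overlapped, so their order is not settled by the 2 replicates. The replicate ranks of the other neighbouring pairs did not overlap, but with 2 replicates that does not settle their order either. The ranks of nhr-13 come from peaks at different positions. The start peak that nhr-10 had in replicate 2, with 16.4, was above that of nhr-13 there, with 10.6. The gap between nhr-49, at ranks 695 and 686, and nhr-66, at 744 and 1231, was small beside the spread of nhr-66 itself. That between nhr-68, at ranks 568 and 170, and nhr-49 was smaller than the spread of nhr-68.

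The genes differed in how many start positions carried signal. In the windows of the 7 genes lay 31 pooled summits, which form 21 regions once overlapping peaks are merged, against 29 summits in replicate 1 and 25 in replicate 2. Of the 31, 21 were at a start, 10 lay in introns, 8 in coding exons, 8 upstream, 3 in a 3′ UTR and 2 in a 5′ UTR. None had a tRNA, snoRNA or snRNA gene within 100 bp of its summit. Leaving out the 3 IDR peaks, 18 of 28 (64.3%) overlapped a peak of both replicates, against 58.0% of all such nuclear pooled peaks, a share near the background.

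Per length, the gene windows of the 7 genes held 0.821 pooled summits per kb, against 0.351 in the windows of all protein-coding genes and 0.358 in those of other receptor genes. The density ran from 1.16 per kb at nhr-49, 1.05 at nhr-114 and 0.98 at nhr-66 to 0.48 at nhr-10 and 0.19 at nhr-13. The median window was 4.14 kb for the 7 genes and 3.03 kb for all genes.

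**Figure D3:**
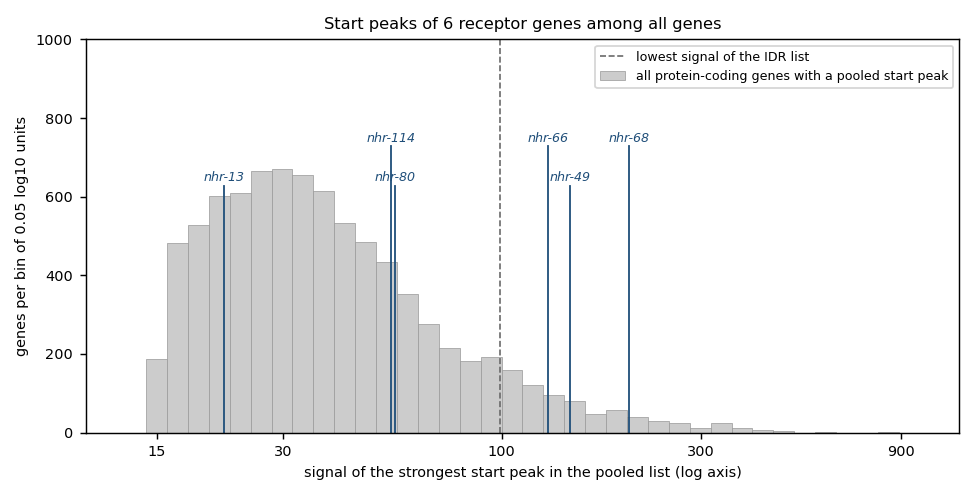
Signal of the strongest pooled start peak for all protein-coding genes with such a peak (grey bars, genes per bin) and for 6 receptor genes (blue lines). The x axis is a log scale of signal and the dashed line marks the lowest IDR signal of 98.9. The lines of nhr-66, nhr-49 and nhr-68 lie in the right tail. Those of nhr-114 and nhr-80 lie right of the highest bars but within the bulk, and that of nhr-13 at 21.7 lies within its left side.

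Among the 8390 protein-coding genes with a pooled start peak, the median signal was 34.2. The peak of nhr-68 held place 150, that of nhr-49 place 312 and that of nhr-66 place 416. The places of nhr-80 and nhr-114 were 1954 and 2018, and nhr-13 was at 6743, below the median. The 6 genes had a median of 92.2 in the pooled list, 62.3 in replicate 1, and the 7 with a start peak in replicate 2 had 33.5 there. The corresponding medians over all genes were 34.2, 21.5 and 17.5, and are not matched for number of starts.

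Of all 274 nuclear receptor genes, 122 had a pooled start peak, and nhr-68, nhr-49 and nhr-66 took places 2, 5 and 7 among them. Places 29, 31 and 97 were those of nhr-80, nhr-114 and nhr-13. The 3 other receptor genes with the strongest start peaks were nhr-255, nhr-35 and nhr-41, with pooled signals of 235, 185 and 179. The summits of nhr-255 and nhr-41 had a small-RNA gene within 100 bp, unlike those of nhr-35 and of the 7 genes. The gene nhr-90 itself had no start peak in any of the lists.

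Genes were also ranked by start peak in the pooled and both replicate lists. Of 5915 genes with a place in all 3, the one nearest to nhr-68 in log2 place was H12C20.7, which shares the same peak. Next came cox-5A, which encodes a subunit of cytochrome c oxidase, at a Euclidean distance of 0.151. Its signals were 206 in the pooled list, 94.2 in replicate 1 and 111 in replicate 2. The third was nfm-1, which encodes a merlin homologue, at 0.243, with 202, 97.1 and 108. The nfm-1 summit had a small-RNA gene within 100 bp, unlike those of nhr-68 and cox-5A. Like places mean only that the peaks are of similar strength.

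Short motifs were searched on both strands in the 101 bp centred on the strongest pooled start peak, or at nhr-10 the strongest pooled peak of its window. The GA repeat GAGAGAG was present at nhr-49, nhr-66 and nhr-80, each with 1 match, as in the nhr-80 sequence printed above. It was in 7.45% of 1422 windows of the same length at nuclear IDR summits and in 3.24% of 28559 at lower pooled summits. The E-box CACGTG, a site of basic helix-loop-helix factors, was present at nhr-68, 9 to 14 bases into the printed stretch, and in 5.49% of IDR and 2.96% of lower windows. The GATA site TGATAA was present at nhr-10, and in 10.8% and 9.80% of these windows.

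No window of the 7 genes held the nuclear receptor site AGGTCA, found in 4.01% of IDR and 2.69% of lower windows, the HNF4-type site AAGTCCA, found in 0.844% and 0.854%, or TATAAA, found in 5.63% and 9.13%. The motifs do not overlap one another in these windows. The windows of nhr-13 and nhr-114 held none of the 6. The G and C content ran from 38.6% at nhr-68 to 63.4% at nhr-80, against a mean of 48.3% (SD 7.88 across windows) at IDR summits and 41.2% (SD 9.78) at lower summits.

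Genes of fat, propionate and methionine metabolism, and 6 regulators of lipid genes, were listed for comparison. Of these 47 genes, 5 had an IDR start peak and 41 a pooled one, against the backgrounds of 3.62% and 42.0% given above. The median pooled signal of those with a pooled start peak was 54.0. All 5 genes of the propionate shunt had a pooled start peak, with a median signal of 74.4, and 2 had an IDR peak. These were acdh-1, the acyl-CoA dehydrogenase that opens the shunt, with a pooled signal of 147, and alh-8, which encodes its last enzyme, with 102. The acdh-1 peak had 89.1 in replicate 1 and 72.6 in replicate 2, while that of alh-8 had 86.4 in replicate 1 and 33.8 in replicate 2, where it stood at rank 2579, outside the first 1441.

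None of the 6 genes of the canonical, vitamin B12-dependent propionate route had an IDR peak, and the strongest pooled start peak there was that of mmaa-1, with a signal of 55.6, and 33.9 and 27.9 in replicates 1 and 2. A pooled start peak was present at 5 of these 6 genes, with a median signal of 44.0. Of 20 genes listed for fatty acid synthesis, desaturation and oxidation, elo-1 alone had an IDR start peak. It encodes a fatty acid elongase, and had a pooled signal of 102, 63.3 in replicate 1 and 43.1 in replicate 2. Not every gene of this list encodes an enzyme of these routes, and fmo-2 does not. In this list 16 genes had a pooled start peak, with a median signal of 52.9, and fat-7, cpt-5, ech-1.1 and fmo-2, named after their values were seen, had none.

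Of 10 genes of the methionine cycle, ahcy-1, which encodes S-adenosylhomocysteine hydrolase, had an IDR start peak with a pooled signal of 131, and 82.5 and 49.2 in replicates 1 and 2. In that list 9 genes had a pooled start peak, with a median signal of 54.0. All 6 regulators of lipid genes had a pooled start peak, with a median signal of 63.8, and cbp-1 alone of them had an IDR peak. The cbp-1 gene, which encodes a histone acetyltransferase, had a pooled signal of 326, above all 7 receptor genes, with 196 and 132 in replicates 1 and 2. These lists were assembled with earlier results of these data known, and the counts were not tested.

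**Figure D4:**
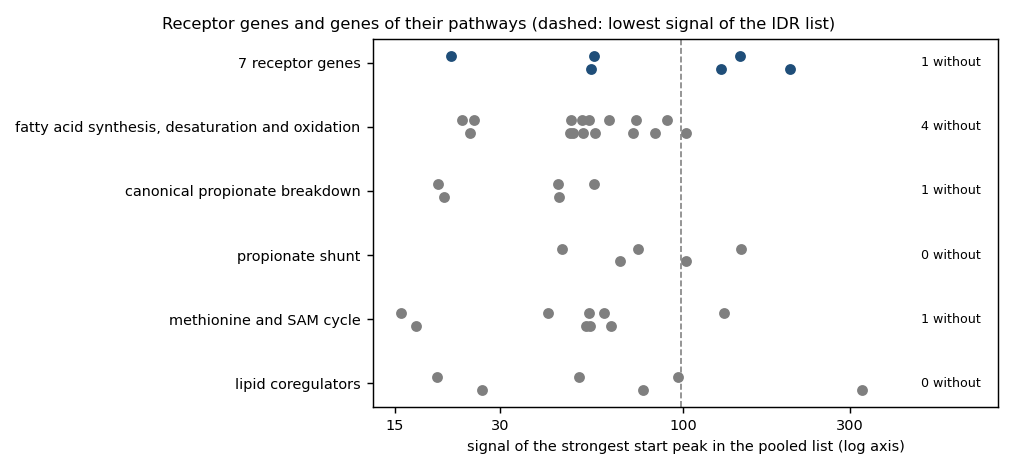
Strongest pooled start peak of the 7 receptor genes (blue) and of the metabolic genes and lipid regulators listed for comparison (grey), one dot per gene. The x axis is peak signal on a log scale, the numbers at the right count genes without a pooled start peak, and the dashed line marks the lowest IDR signal of 98.9. Right of the line lie 3 receptor genes, 1 fatty acid gene, 2 shunt genes, 1 methionine cycle gene and 1 lipid regulator.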

How the data were processed

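ChIP-seq peak lists of 2 replicates were used as the authors deposited them, in narrowPeak format. The deposited text records describe the replicate and pooled lists as peaks and background prepared for IDR, from which the IDR list derives. No source used here names the aligner, peak caller or IDR threshold. The deposited signal column ranked the peaks. The deposited −log10 q-value reached its highest value of 2.79 in 2783 pooled peaks, 5 of them in the windows of the 7 genes, and was not used for ranking.

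Summits were placed on Ensembl release 115 models of WBcel235, whose coordinates ce11 follows, with Python 3.11.15 and pandas 2.3.3. The placing was checked on peaks planted at known distances. Overlap meant at least 1 shared bp. No coordinate was converted between builds. With 1 group no test between samples could be made, and no p-value was computed. The genes and lists were chosen with earlier results of these data known. Genes outside the 7, except 4 genes of the fatty acid list without a pooled start peak, were named by rule. The rule took genes listed for comparison with an IDR start peak, or else the strongest of a list. It also took the 3 strongest other receptors, the 3 nearest in rank to nhr-68, nhr-90, and genes at the named summits. Alternatives were other start windows, outermost starts, any base of a peak, shorter and longer lists, no summits near small-RNA genes, and each replicate alone.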

Additional observations from a re-analysis of the deposited data

How the results depend on the processing

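The count of 3 genes with an IDR start peak held with 500 bp upstream alone, a narrower window that could have lowered it. It was also 3 in the 2000 bp window and with any base of the peak. A pooled list as long as the ce10 IDR list gave 3 too. These wider settings could not lower the count. It was 3 without summits near small-RNA genes, but none of the 3 IDR summits was near one. Without replicate 1 or without replicate 2 the count was also 3, read from the strongest peaks of the other replicate's own list, without IDR. All 3 start peaks ranked within the first 1441 of each replicate list, as given above, so this adds little. The count was 2 with outermost starts only, which drops nhr-66, whose strongest pooled signal is then 20.3. It was 2 among the 720 strongest IDR peaks, which also drops nhr-66. In the gene alone, with no bases upstream, 1 gene (nhr-66) had an IDR summit. The number of the 7 genes with a pooled start peak ran from 5 to 7 over these windows, and that with one in both replicate lists also from 5 to 7. The share of all genes with an IDR start peak was 2.09% with 500 bp upstream alone and 5.46% with 2000 bp upstream to 1000 bp downstream. It was 1.69% with the 720 strongest and 5.76% with the longer pooled list. With outermost starts only it was 3.21%, with any base of the peak 4.08%, and without summits near small-RNA genes 2.88%. Without replicate 1 it was 3.49% and without replicate 2 3.74%. No share of all genes is given for the gene alone or for the pooled and both-replicate counts under these alternatives. The strongest start signal of nhr-114 was 25.8 with 500 bp upstream alone and 27.4 at its outermost start, and nhr-13 had none within 500 bp upstream. The number of reads behind each peak is unknown, so a gene without a peak cannot be called unbound.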
